A study of Mus musculus with 12 samples.

Results

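The 8 genes described here, *Gnaq*, *Vps13a*, *Prune2*, *Klf9*, *Smc5*, *Gldc*, *Ide* and *Sorcs1*, lie on mouse chromosome 19, which also carries *Trpm3*, the gene for a calcium-permeable cation channel. They were taken as the genes of that chromosome that lie near *Trpm3* or that differed in the *Trpm3*-KO libraries, so their values in *Trpm3*-KO lenses helped to choose them and are given as a description with no test. All 8 were found among the 55487 gene identifiers of the deposited table and all 8 were among the 8984 genes that were tested. RNA was sequenced from whole lenses of mice aged 7 days (P7), with 12 libraries in all and 3 for each of 4 genotypes. A library was made from pooled lenses, 4 from males and 4 from females per the series' design text.

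WT lenses carried the wild-type channel. *Trpm3*-KO lenses came from mice whose gene was interrupted by homologous recombination and whose line was re-derived from frozen embryos. The mutant lenses were of 2 kinds, heterozygous (*Trpm3*-I/M) or homozygous (*Trpm3*-M/M) for an isoleucine-to-methionine change that had been introduced with CRISPR/Cas9. The study maintained its mice on the C57BL6/J background. Because each allele was carried by its own line, the effect of an allele and any other difference between the lines cannot be told apart. A library is a pool of lenses, so the spread between the 3 libraries of a genotype does not show the spread between single animals.

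A gene altered in place shares its chromosome with many neighbours that have no part in its function. In a line bred from one altered chromosome, the genes closest to the altered site are inherited together with it, and they can therefore differ from those of another line in sequence as well as in level. Genes on a chromosome can also share control regions with their neighbours, and for that reason the flanks of a targeted locus are often examined beside the targeted gene itself.

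The 8 genes have unrelated roles. *Klf9* encodes a zinc finger transcription factor of the Sp/KLF family that is induced by glucocorticoid and thyroid hormone, and *Smc5* encodes a core ATPase of the SMC5/6 complex, which acts in DNA repair and chromosome maintenance. *Gnaq* encodes the alpha subunit of the Gq protein, which couples receptors to phospholipase C and to the release of stored calcium. *Vps13a* encodes a bridge-like protein that moves lipids between membranes, and *Prune2* encodes a large protein with a BCH domain. *Gldc* encodes the decarboxylase of the glycine cleavage system, which feeds one-carbon units from glycine into folate metabolism in mitochondria. *Ide* encodes insulin-degrading enzyme, a zinc metalloprotease of the M16 family, and *Sorcs1* encodes a sorting receptor with a VPS10 domain that directs proteins through the endosomal system.

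In GRCm38, *Trpm3* spans chr19:22139046-22995410 on the plus strand. The 3 genes proximal to it are *Gnaq* (chr19:16132831-16387463, plus strand), *Vps13a* (chr19:16615366-16780933, minus strand) and *Prune2* (chr19:16956118-17223932, plus strand), which end 5.75, 5.36 and 4.92 Mb before *Trpm3* starts. On the distal side, *Klf9* (chr19:23141226-23168134, plus strand) starts 0.146 Mb after *Trpm3* ends and *Smc5* (chr19:23206451-23273897, minus strand) lies 0.211 Mb from it. *Gldc* (chr19:30098447-30175429, minus strand) lies 7.1 Mb away, *Ide* (chr19:37268743-37337852, minus strand) 14.3 Mb away and *Sorcs1* (chr19:50143299-50678646, minus strand) 27.1 Mb away. *Ide* and *Sorcs1* thus lie outside the window of 10 Mb on either side that was used for the neighbours below.

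The 250 bases before the RefSeq start site are shown for 4 of the genes, because these showed the widest range of patterns between genotypes: *Klf9* and *Gldc* lay on opposite sides of WT in *Trpm3*-KO and *Trpm3*-M/M lenses, and *Sorcs1* and *Prune2* were higher than WT in all of the other genotypes. The sequences are from RefSeq (GRCm38.p6) and are written 5′ to 3′ on the strand of the gene. *Klf9* is chr19:23140976-23141225 on the plus strand, *Prune2* is chr19:16955868-16956117 on the plus strand, *Gldc* is chr19:30175442-30175691 on the minus strand and *Sorcs1* is chr19:50678647-50678896 on the minus strand. Capitals mark 2 motifs on either strand, the GC box (GGGCGG or CCGCCC), the sequence bound by Sp and KLF factors, and the core of the cyclic AMP response element (TGACG or CGTCA).
Klf9: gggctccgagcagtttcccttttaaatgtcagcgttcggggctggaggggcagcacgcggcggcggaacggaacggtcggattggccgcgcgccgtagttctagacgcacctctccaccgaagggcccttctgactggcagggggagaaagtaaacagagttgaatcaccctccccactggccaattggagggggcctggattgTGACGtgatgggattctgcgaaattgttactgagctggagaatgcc
Gldc: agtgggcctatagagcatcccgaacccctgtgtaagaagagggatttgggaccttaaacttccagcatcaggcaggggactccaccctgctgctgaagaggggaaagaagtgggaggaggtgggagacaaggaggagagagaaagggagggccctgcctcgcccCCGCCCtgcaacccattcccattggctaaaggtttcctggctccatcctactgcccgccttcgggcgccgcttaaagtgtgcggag
Sorcs1: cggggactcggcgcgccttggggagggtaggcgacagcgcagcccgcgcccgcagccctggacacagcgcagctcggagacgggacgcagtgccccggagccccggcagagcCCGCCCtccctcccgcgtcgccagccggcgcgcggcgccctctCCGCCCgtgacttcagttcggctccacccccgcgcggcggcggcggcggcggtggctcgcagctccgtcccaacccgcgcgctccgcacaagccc
Prune2: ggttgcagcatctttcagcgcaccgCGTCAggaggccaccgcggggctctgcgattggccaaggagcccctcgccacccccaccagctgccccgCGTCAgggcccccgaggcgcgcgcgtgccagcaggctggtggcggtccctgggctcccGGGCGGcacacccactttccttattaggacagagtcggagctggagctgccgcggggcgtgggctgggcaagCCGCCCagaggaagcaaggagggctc

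The GC box was found in 32.7% of the 32851 promoters of the same table and TGACG in 17.8%. The *Klf9* sequence held 0 GC boxes and 1 TGACG, and *Gldc* held 1 GC box and 0 TGACG. *Sorcs1* held 2 GC boxes, and *Prune2* held 2 GC boxes and 2 copies of TGACG. GC content was 59.6% in both *Klf9* and *Gldc*, 79.6% in *Sorcs1* and 72.0% in *Prune2*, against a median of 52.4% over the table. A match to these letters is a description of the sequence and no evidence of a bound factor. All 8 genes had an entry, but the RefSeq starts of *Smc5* and *Ide* lay 1298 and 3308 bases from the annotated start of the gene, and their sequences are not shown.

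Levels are given as CPM, counts scaled to a common library total, with library sizes adjusted by TMM factors. The libraries held between 56162169 and 82090198 counts on genes. TMM factors were 0.828 to 0.905 in WT and 1.22 to 1.27 in *Trpm3*-M/M, and the share of counts on crystallin genes, the structural proteins of the lens, was lower in *Trpm3*-M/M (49.4% to 51.3%) than in WT (61.0% to 63.9%). Scaled by library size alone, the median gene would be higher by 0.50 on the log2 scale in *Trpm3*-M/M, by 0.20 in *Trpm3*-I/M and by 0.05 in *Trpm3*-KO than in WT, so every difference below is relative to the bulk of the other genes. *Trpm3*-I/M replicate 3 stood apart, with *Xist* at 0.0721 CPM against 45.8 to 304.9 CPM in the other 11 libraries and the highest level of each of the 4 Y-linked genes examined, which leaves in doubt that it held lenses of both sexes. The *Trpm3*-I/M comparisons of the 8 genes, and the counts over other sets of genes there, are therefore also given without it.

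*Trpm3* itself checks the labels. It stood at 269.9, 250.6 and 285.1 CPM in WT and at 89.9, 99.7 and 96.3 CPM in *Trpm3*-KO, a fold change of -1.49 ± 0.06 on the log2 scale (log2 FC ± SE; adjusted p = 3.36e-09 by edgeR's quasi-likelihood test). Gene-level counts add up all exons, so they do not show which part of the gene the remaining reads came from. It stood above all WT libraries in both mutants, between 370.2 and 413.4 CPM in the heterozygous and between 468.5 and 484.1 CPM in the homozygous lenses.

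Per kilobase of exon, *Ide* was the most abundant of the 8 genes in WT lenses, at 22.0 ± 2.54 CPM per kb (mean ± SD, n = 3), and *Trpm3* stood at 11 ± 0.708 CPM per kb. *Gnaq* (4.94 ± 0.0879 CPM per kb), *Gldc* (3.89 ± 0.11), *Smc5* (2.41 ± 0.0773) and *Klf9* (2.06 ± 0.218) followed. *Vps13a* (0.413 ± 0.0351 CPM per kb), *Prune2* (0.117 ± 0.0163) and *Sorcs1* (0.0191 ± 0.00179) were low. Each step in this order was larger than the SDs of the genes on either side of it. In *Trpm3*-KO lenses the level of *Gldc*, at 8.3 ± 0.304 CPM per kb, was second to that of *Ide*, at 10.7 ± 0.17. The counting was not stated to use strand, and reads from a gene and from an overlapping one on the other strand could not be told apart. Such an overlap was largest for *Gnaq*, within which the processed pseudogene *Gm10819* was counted at up to 1286 reads in a library, against at least 1430 for *Gnaq*.

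*Prune2* and *Sorcs1* reached the CPM of 5 that was required in 3 libraries only in the *Trpm3*-M/M group. A gene that enters the test through its highest group had to differ, so the *Trpm3*-M/M values of these 2 genes are given as a description with no p, and each count over the 8 is followed by the count over the other 6. Of the other genes named below, *Klf4*, *Klf12*, *Rgs2*, *Plcb1*, *Kif11* and *Mamdc2* likewise reached that CPM only in *Trpm3*-M/M libraries. So did the cell type markers *Pecam1*, *Cdh5*, *Tie1*, *Cldn5*, *Cspg4* and *Col1a1*. *Klf10* reached that CPM in 1 WT library and otherwise only in *Trpm3*-M/M libraries, so it too entered the test through them. The *Trpm3*-M/M differences of all of these are read in the same way.

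**Figure D1:**
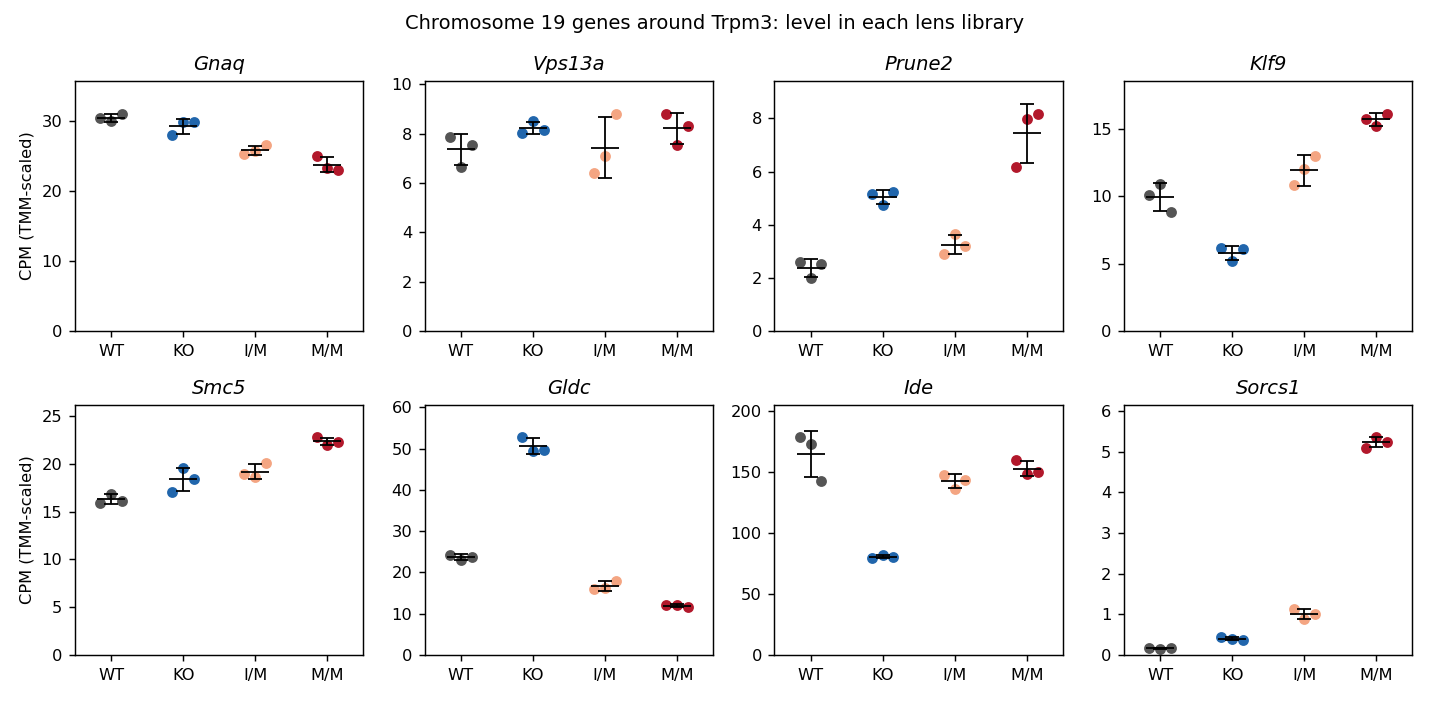
Level of each of the 8 genes in every library (points; CPM, TMM-scaled, linear axis from 0), by genotype, with the mean and SD of 3 libraries (bars). *Klf9* and *Gldc* lay on opposite sides of WT in KO and M/M, *Ide* was lowest in KO, and *Sorcs1* rose from 0.161 CPM in WT to 5.23 CPM in M/M.

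Against WT, in *Trpm3*-I/M lenses 7 of the 8 genes passed an adjusted p of 0.05, 4 higher and 3 lower, and 5 of the 6 other than *Prune2* and *Sorcs1* did, where 32.6% of all tested genes were called. *Trpm3*-M/M lenses had 6 of 8 called, 4 higher and 2 lower, and 4 of those 6, where 62.7% of all tested genes were called. Between *Trpm3*-M/M and *Trpm3*-I/M, a comparison that shares no library with the values used to choose the genes, 6 of 8 were called, 4 higher and 2 lower, and 4 of those 6, against 51.3% of all tested genes. With a fold change of at least 2 also required, the counts were 1, 2 and 2 of 8 and 0 of the 6 in each, against 3.33%, 8.95% and 4.7% of all tested genes. The genes past both thresholds were *Sorcs1* in all 3 comparisons and *Prune2* in the last 2. Without *Trpm3*-I/M replicate 3, the count in *Trpm3*-I/M against WT was 4 of 8 and 3 of the 6, where 26.5% of all tested genes were called, and without replicate 2 it was also 4 of 8 and 3 of the 6. Scaled by library size alone, 5 of 8 were called in *Trpm3*-I/M (4 higher and 1 lower), 8 of 8 in *Trpm3*-M/M (7 higher and 1 lower) and 8 of 8 between the mutants (7 higher and 1 lower), and of the 6 the counts were 3, 6 and 6. In the same order, that scaling called 26, 40 and 36 of 48 other genes within 10 Mb of *Trpm3*. It called 40, 70 and 66 of 72 partner genes, which are described below. Nothing particular to the 8 is therefore read from these counts. The comparisons with WT share the WT libraries with each other and with the values that chose the genes. In *Trpm3*-KO against WT, 5 of 8 and 3 of the 6 lay past the same threshold, where 4.36% of all tested genes did, and nothing is read from that count since these values helped to choose the genes. The median log2 fold change of the 6 was 0.02 in the homozygous mutants, -0.10 in the heterozygous and 0.05 in the null lenses, and with *Prune2* and *Sorcs1* it was 0.30, 0.12 and 0.16. The median over all tested genes was near 0 in each comparison.

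*Klf9*, the gene next to *Trpm3* on the distal side, moved in opposite directions in the null and the mutant lenses. It stood at 10.1, 10.9 and 8.82 CPM in WT and at 6.13, 5.17 and 6.09 CPM in *Trpm3*-KO. *Trpm3*-I/M libraries held 10.8, 12 and 13 CPM, and *Trpm3*-M/M libraries 15.7, 15.2 and 16.1 CPM. All *Trpm3*-KO libraries lay below WT and all *Trpm3*-M/M libraries lay above every other library, while *Trpm3*-I/M overlapped WT. The *Trpm3*-KO difference was -0.78 ± 0.10 on the log2 scale (1.71-fold lower). *Klf9* rose by 0.66 ± 0.09 in *Trpm3*-M/M against WT (1.58-fold, adjusted p = 2.18e-05) and by 0.39 ± 0.08 against *Trpm3*-I/M (adjusted p = 0.00173; 0.46 without *Trpm3*-I/M replicate 3, adjusted p = 0.0014). In *Trpm3*-I/M against WT it rose by 0.27 ± 0.09 (adjusted p = 0.0362), a call that was lost without *Trpm3*-I/M replicate 3 (log2 FC 0.20, adjusted p = 0.139). The call was also lost without *Trpm3*-I/M replicate 2, WT replicate 1, WT replicate 3 or *Trpm3*-KO replicate 3 (adjusted p from 0.05 to 0.15).

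*Smc5*, which lies 38.3 kb beyond *Klf9*, rose with it in both mutants, while in *Trpm3*-KO lenses, whose values helped to choose the genes, it lay above WT and *Klf9* below. It stood at 15.9, 16.9 and 16.1 CPM in WT, at 17.1, 19.6 and 18.4 CPM in *Trpm3*-KO, at 19, 18.6 and 20.1 CPM in *Trpm3*-I/M and at 22.8, 22.0 and 22.3 CPM in *Trpm3*-M/M. Every library of the other genotypes lay above the highest WT library, and every *Trpm3*-M/M library above all others. The *Trpm3*-KO difference was 0.17 ± 0.05 on the log2 scale. *Smc5* rose by 0.23 ± 0.05 in *Trpm3*-I/M (adjusted p = 0.00476) and by 0.20 without replicate 3 (adjusted p = 0.0244). It rose by 0.45 ± 0.05 in *Trpm3*-M/M against WT (1.37-fold, adjusted p = 6.45e-06) and by 0.22 ± 0.05 against *Trpm3*-I/M (adjusted p = 0.00303; 0.25 without *Trpm3*-I/M replicate 3, adjusted p = 0.0032).

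Of the proximal genes, *Gnaq* was lower in both mutants than in WT, a direction that turned in *Trpm3*-M/M when library size alone was used. It stood at 30.5, 30.0 and 31.1 CPM in WT and at 28.1, 29.9 and 29.9 CPM in *Trpm3*-KO, a difference of -0.06 ± 0.05 on the log2 scale. *Trpm3*-I/M libraries held 25.3, 25.8 and 26.6 CPM, and *Trpm3*-M/M libraries 25.1, 23.3 and 23.1 CPM. Every mutant library lay below every WT and *Trpm3*-KO library. *Gnaq* fell by 0.24 on the log2 scale in *Trpm3*-I/M (SE 0.04, adjusted p = 0.00119; -0.26 without replicate 3, adjusted p = 0.00271), and by library size alone the value was -0.04 (adjusted p = 0.59). It fell by 0.36 in *Trpm3*-M/M (SE 0.04, adjusted p = 1.13e-05), where scaling by library size alone turned the direction to 0.15 higher, less than the 0.50 shift of the median gene under that scaling. The *Trpm3*-M/M value was lower than that of *Trpm3*-I/M by a log2 FC of -0.12 ± 0.04 (adjusted p = 0.0363), which turned to 0.19 higher by library size alone and was not called by DESeq2 (adjusted p = 0.0617) or without *Trpm3*-I/M replicate 3 (adjusted p = 0.12). Leaving out *Trpm3*-I/M replicate 2, *Trpm3*-M/M replicate 2 or 3, or *Trpm3*-KO replicate 3 also removed that call (adjusted p from 0.0502 to 0.21).

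*Vps13a*, the next gene along, passed in none of the tested comparisons with all libraries and TMM scaling. It stood at 7.86, 6.66 and 7.55 CPM in WT, at 8.02, 8.5 and 8.15 CPM in *Trpm3*-KO, at 6.39, 7.1 and 8.81 CPM in *Trpm3*-I/M and at 8.78, 7.53 and 8.33 CPM in *Trpm3*-M/M. The *Trpm3*-KO libraries lay just above WT, while the mutant libraries overlapped WT. Its log2 FC was 0.16 ± 0.11 both in *Trpm3*-KO and in *Trpm3*-M/M (adjusted p = 0.222 in the latter) and 0.01 ± 0.11 in *Trpm3*-I/M (adjusted p = 0.95). *Trpm3*-I/M replicate 3 held the highest value, and without it *Vps13a* was called in *Trpm3*-M/M against *Trpm3*-I/M (log2 FC 0.28, adjusted p = 0.0225), where the value with all libraries was 0.14 ± 0.10 (adjusted p = 0.263). By library size alone its value in *Trpm3*-M/M against WT was 0.66 (adjusted p = 0.000108), against the 0.50 shift of the median gene.

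*Prune2*, 175.2 kb from *Vps13a*, was higher than WT in all of the other genotypes. It stood at 2.6, 2.0 and 2.54 CPM in WT, at 5.16, 4.74 and 5.24 CPM in *Trpm3*-KO, at 2.91, 3.66 and 3.21 CPM in *Trpm3*-I/M and at 6.16, 7.99 and 8.18 CPM in *Trpm3*-M/M. The 4 genotypes did not overlap, and *Trpm3*-KO lay between *Trpm3*-I/M and *Trpm3*-M/M. These levels rest on 95 to 132 counts in a WT library and on 493 to 737 in a *Trpm3*-M/M library. The *Trpm3*-KO difference was 1.08 ± 0.14 on the log2 scale (2.12-fold). *Prune2* stood higher by 1.65 ± 0.14 in *Trpm3*-M/M than in WT (3.13-fold), and by 1.19 ± 0.13 than in *Trpm3*-I/M (1.18 without *Trpm3*-I/M replicate 3), with no p given since it was tested only because the *Trpm3*-M/M level was high. Without a filter on low counts, where all genes with a count were fitted, these values were 1.64 and 1.16. In *Trpm3*-I/M against WT the value was 0.46 ± 0.14 (adjusted p = 0.0267), and it was not called without replicate 3 (0.47, adjusted p = 0.0515) or replicate 2 (0.36, adjusted p = 0.11) of *Trpm3*-I/M, or without WT replicate 2 (0.34, adjusted p = 0.115).

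*Gldc* showed the reverse of the *Klf9* pattern. It stood at 24.3, 23.0 and 23.7 CPM in WT and at 52.7, 49.3 and 49.6 CPM in *Trpm3*-KO, 2.13-fold higher (log2 difference 1.09 ± 0.05). *Trpm3*-I/M libraries held 16, 16.1 and 18 CPM, and *Trpm3*-M/M libraries 12.2, 12 and 11.6 CPM. The 4 genotypes did not overlap, and the order ran from *Trpm3*-M/M through *Trpm3*-I/M and WT to *Trpm3*-KO. *Gldc* fell by 0.50 on the log2 scale in *Trpm3*-I/M (SE 0.05, adjusted p = 8.42e-06; -0.56 without replicate 3, adjusted p = 5.15e-06). It fell by 0.99 in *Trpm3*-M/M against WT (SE 0.05, 1.98-fold lower, adjusted p = 3.29e-09) and by 0.49 against *Trpm3*-I/M (SE 0.05, adjusted p = 6.73e-06; -0.43 without *Trpm3*-I/M replicate 3, adjusted p = 2.62e-05). The *Trpm3*-M/M fold thus lay just short of 2, and by library size alone it was -0.48.

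*Ide* differed in *Trpm3*-KO lenses but little in the mutants. It stood at 178.6, 172.9 and 143.1 CPM in WT and at 79.7, 82.0 and 80.0 CPM in *Trpm3*-KO, 2.05-fold lower (log2 difference -1.03 ± 0.07). *Trpm3*-I/M libraries held 147.6, 136.5 and 143.8 CPM, and *Trpm3*-M/M libraries 160.4, 148.5 and 150.1 CPM. All *Trpm3*-KO libraries lay far below the other 9, and both mutant groups overlapped WT, in which replicate 3 was the lowest. The *Trpm3*-I/M value was -0.21 ± 0.07 on the log2 scale (adjusted p = 0.036), not called without *Trpm3*-I/M replicate 3 (-0.22, adjusted p = 0.0716), *Trpm3*-I/M replicate 2 (-0.18, adjusted p = 0.113), WT replicate 1 (-0.15, adjusted p = 0.135) or WT replicate 2 (-0.18, adjusted p = 0.113). By library size alone that value was -0.0073 (adjusted p = 0.936), and with only the 2 genotypes fitted it was -0.20 (adjusted p = 0.109). The *Trpm3*-M/M value was -0.11 ± 0.07 (adjusted p = 0.195), which was -0.20 without WT replicate 3 (adjusted p = 0.00405) and turned to 0.40 by library size alone. *Trpm3*-M/M and *Trpm3*-I/M differed by 0.10 ± 0.07 (adjusted p = 0.245; 0.11 without *Trpm3*-I/M replicate 3, adjusted p = 0.308).

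*Sorcs1*, the gene farthest from *Trpm3*, had the widest range. It stood at 0.177, 0.147 and 0.159 CPM in WT, at 0.43, 0.398 and 0.376 CPM in *Trpm3*-KO, at 1.13, 0.887 and 0.995 CPM in *Trpm3*-I/M and at 5.1, 5.35 and 5.24 CPM in *Trpm3*-M/M. The 4 genotypes did not overlap, in this order. The WT libraries held 7 to 9 counts each and the *Trpm3*-KO libraries 20 to 23, so both levels are near the limit of these libraries. The *Trpm3*-KO difference was 1.31 ± 0.22 on the log2 scale. *Sorcs1* rose by 2.62 ± 0.18 in *Trpm3*-I/M (6.16-fold, adjusted p = 1.79e-07; 2.63 without replicate 3, adjusted p = 1.04e-06). It stood higher by 5.0 ± 0.15 in *Trpm3*-M/M than in WT (32.1-fold) and by 2.38 ± 0.10 than in *Trpm3*-I/M (5.21-fold; 2.37 without *Trpm3*-I/M replicate 3), again with no p, and without a filter on low counts these values were 4.99 and 2.34.

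**Figure D2:**
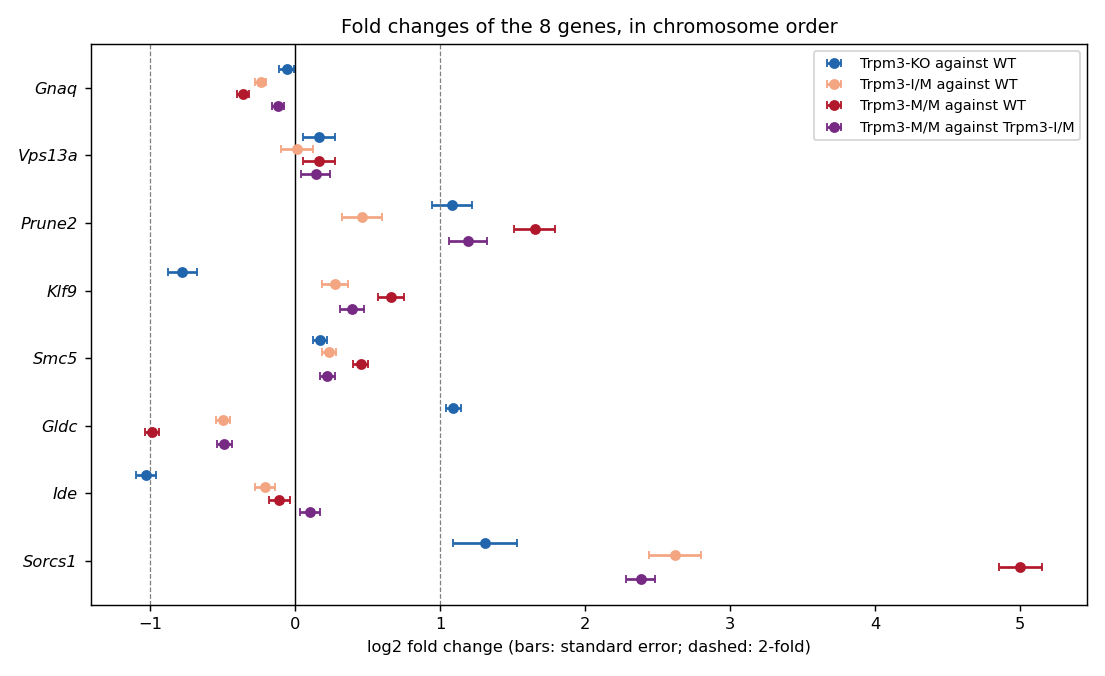
Log2 fold change of the 8 genes (x axis; points with their standard errors) in 4 comparisons, with the genes in chromosome order from proximal to distal; dashed lines mark a 2-fold difference. *Sorcs1* reached 5.0 in *Trpm3*-M/M, *Klf9* and *Gldc* lay on opposite sides of 0 in *Trpm3*-KO and *Trpm3*-M/M, and *Vps13a* stayed near 0; the *Trpm3*-KO values helped to choose the genes.

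The lenses also differed in their markers of other cell types, and the part of these in the results above was not tested. In bulk samples, fewer cells of a type and less RNA per cell cannot be told apart. All 8 lens fiber markers were lower in *Trpm3*-M/M than in WT, with a summed level of 15525 to 17963 CPM against 29706 to 31923 CPM, and 6 of 8 were lower in *Trpm3*-I/M. The summed level of the 6 lens epithelium markers was 338.1 to 375.7 CPM in WT, 313.6 to 325.6 CPM in *Trpm3*-KO, and then 238.1 to 262.7 CPM in the heterozygous and 199.9 to 207.7 CPM in the homozygous mutants, with 4 of the 6 lower and 1 higher than WT in each mutant (*Cdh1* higher in the former and *Pdpn* in the latter). All 5 tested of 7 endothelial markers were higher in both mutants. Of these, *Pecam1*, *Cdh5*, *Tie1* and *Cldn5* reached the CPM of 5 only in *Trpm3*-M/M libraries, so their *Trpm3*-M/M differences are a description. The sum over the 7 was 5.76 to 8.21 CPM in WT, 17.7 to 24.6 CPM in *Trpm3*-I/M and 47.6 to 55.4 CPM in *Trpm3*-M/M. In *Trpm3*-KO that sum was 6.03 to 6.66 CPM, within the range of WT. The 7 macrophage markers summed to at most 0.452 CPM in WT and to 8.0 to 14.8 CPM in *Trpm3*-M/M, and none of them passed the filter on low counts. The 8 pericyte and fibroblast markers summed to 177.9 to 186.4 CPM in WT, to 142.8 to 151.3 CPM in *Trpm3*-KO, to 177.2 to 206.4 CPM in *Trpm3*-I/M and to 311.5 to 440.7 CPM in *Trpm3*-M/M. Of the 7 tested, *Notch3* and *Pdgfra* were lower in both mutants, while 3 of the others were higher in the heterozygous mutants and 5 in the homozygous. Among the 5, *Cspg4* and *Col1a1* reached the CPM of 5 only in *Trpm3*-M/M libraries, so their *Trpm3*-M/M differences are a description. The 8 photoreceptor markers summed to 0.651 to 0.872 CPM in WT and 1.54 to 4.4 CPM in *Trpm3*-M/M, above all other libraries, and none was tested. Those of other retinal neurons and glia summed to at most 7.48 CPM in any library. The 6 markers of pigmented cells summed to 5.32 to 6.17 CPM in *Trpm3*-I/M, above the 3.09 to 3.63 CPM of WT and the 2.89 to 3.46 CPM of *Trpm3*-M/M, with *Tyrp1* at 4.28 to 4.97 CPM in *Trpm3*-I/M and 2.1 to 2.48 CPM in WT, while *Tyr*, *Mlana* and *Rpe65* held at most 3 counts in every library. Leaving out *Trpm3*-I/M replicate 3 changed none of the marker counts given for *Trpm3*-I/M.

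The genes were set among the other tested genes of chromosome 19 by their distance from *Trpm3*. Within 10 Mb on either side lay 54 tested genes other than *Trpm3*, among them 6 of the 8 described above. Without these 6, in *Trpm3*-KO 5 of the other 48 were called (10.4%, against 4.36% of all tested genes), 3 higher and 2 lower. In *Trpm3*-I/M the share called was 31.2% (15 of 48, against 32.6%), in *Trpm3*-M/M 66.7% (32 of 48, against 62.7%) and between the mutants 52.1% (25 of 48, against 51.3%), each close to its background. Without *Trpm3*-I/M replicate 3 the shares were 27.1% in *Trpm3*-I/M (13 of 48, against 26.5%) and 43.8% between the mutants (21 of 48, against 45.8%). By library size alone, the window genes called in *Trpm3*-M/M split into 37 higher and 3 lower, against 15 higher and 17 lower with TMM factors, and those in *Trpm3*-I/M into 23 higher and 3 lower, against 7 and 8. Over the 324 tested genes of chromosome 19 other than *Trpm3* and the 8, *Trpm3*-KO calls came to 4.32%. With the 6 included, the *Trpm3*-KO share was 4 of 21 genes within 2 Mb, 2 of 9 between 2 and 5 Mb, 2 of 24 between 5 and 10 Mb, 8 of 195 between 10 and 20 Mb and 3 of 83 beyond; since the 6 were chosen in part on these values, no trend is read from this. The median absolute log2 FC in *Trpm3*-KO was 0.121 over the 48 genes and 0.072 over all tested genes.

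The 5 other window genes called in *Trpm3*-KO were named after their values were seen, except *Cemip2* and *Uhrf2*. *Carnmt1*, the carnosine N-methyltransferase gene on the proximal side, stood at 9.7 ± 1.04 CPM in WT and 5.8 ± 0.556 CPM in *Trpm3*-KO (mean ± SD, n = 3; log2 FC -0.74 ± 0.09, adjusted p = 0.000323 by edgeR). *Pip5k1b*, a phosphatidylinositol phosphate kinase gene, was lower (log2 FC -0.93 ± 0.23, adjusted p = 0.0394), with a wide WT spread of 10.1 ± 4.26 CPM. *Tmem252* was higher (0.54 ± 0.11, adjusted p = 0.0157), as were *Cemip2*, a hyaluronidase gene (0.32 ± 0.05, adjusted p = 0.00299), and *Uhrf2* (0.23 ± 0.05, adjusted p = 0.0112). None of the 48 passed the fold change of 2 as well in *Trpm3*-KO, by edgeR or by DESeq2, while 20 had an unadjusted p under 0.05 by edgeR and DESeq2 called 6 at an adjusted p of 0.05.

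In the mutants, 5 of the 48 other window genes (10.4%, against 8.95% of all tested genes) passed both thresholds in *Trpm3*-M/M against WT, a share near the background. *Mamdc2*, 28.7 kb beyond *Smc5*, stood at 1.88 ± 0.224 CPM in WT and 14.6 ± 0.904 CPM in *Trpm3*-M/M, with *Trpm3*-I/M between them at 3.63 ± 0.68 CPM (*Trpm3*-M/M log2 FC 2.96 ± 0.13, or 2.95 without a filter on low counts). *Cemip2* (1.83 ± 0.05), *Sgms1*, a sphingomyelin synthase gene (1.73 ± 0.10), and *Ostf1* (1.22 ± 0.11) also rose, and *Cntf*, the ciliary neurotrophic factor gene, fell (-1.35 ± 0.08). *Mamdc2* did not move with *Klf9* in *Trpm3*-KO lenses, where its value was -0.08 ± 0.16 (adjusted p = 0.835).

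The nearest tested genes were read beside each of the 8. *Uhrf2*, a ubiquitin ligase gene that lies 4.72 kb from *Gldc*, had the same signs as *Gldc* and smaller values, although by library size alone its *Trpm3*-M/M value turned to 0.20: 0.23 in *Trpm3*-KO, -0.31 in *Trpm3*-M/M (adjusted p = 4.93e-05) and -0.27 in *Trpm3*-I/M (adjusted p = 0.000517). On the other side *Prkg1*, 389.1 kb away, stood at -0.02 in *Trpm3*-KO. Beside *Ide*, neither *Marchf5* (46.6 kb away; 0.03 in *Trpm3*-KO, adjusted p = 0.847) nor *Kif11* (38.6 kb away; -0.18, adjusted p = 0.548) was called in *Trpm3*-KO. Of the 6 tested genes from *Ppp1r3c* to *Marchf5*, named after their values were seen, 3 were lower in *Trpm3*-KO, *Fgfbp3* (-0.90 ± 0.14, adjusted p = 0.00168), *Ppp1r3c* (-0.44 ± 0.11, adjusted p = 0.0387) and *Btaf1* (-0.34 ± 0.08, adjusted p = 0.0299). *Tnks2* and *Cpeb3*, which lie among them, stood at -0.02 and 0.06 there. In *Trpm3*-M/M *Fgfbp3* (-0.82), *Ppp1r3c* (-1.0), *Btaf1* (-0.37) and *Cpeb3* (-0.92) were lower, while *Tnks2* (-0.04) and *Marchf5* (0.09) were not called. In *Trpm3*-I/M *Fgfbp3* was lower (-0.60) and *Ppp1r3c* higher (0.37). The neighbours of *Sorcs1* were over 2 Mb away, and of these *Xpnpep1* was higher in *Trpm3*-KO (0.33, adjusted p = 0.000647) and *Gsto1* in *Trpm3*-M/M (1.42, adjusted p = 1.03e-07). Proximal to *Gnaq*, *Psat1*, a gene of serine synthesis, stood at -0.17 in *Trpm3*-I/M (adjusted p = 0.0167; -0.15 without replicate 3, adjusted p = 0.0669) and -0.01 in *Trpm3*-M/M (adjusted p = 0.813). *Rfk*, distal to *Prune2*, rose by 0.39 in *Trpm3*-M/M (adjusted p = 6.31e-05).

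**Figure D3:**
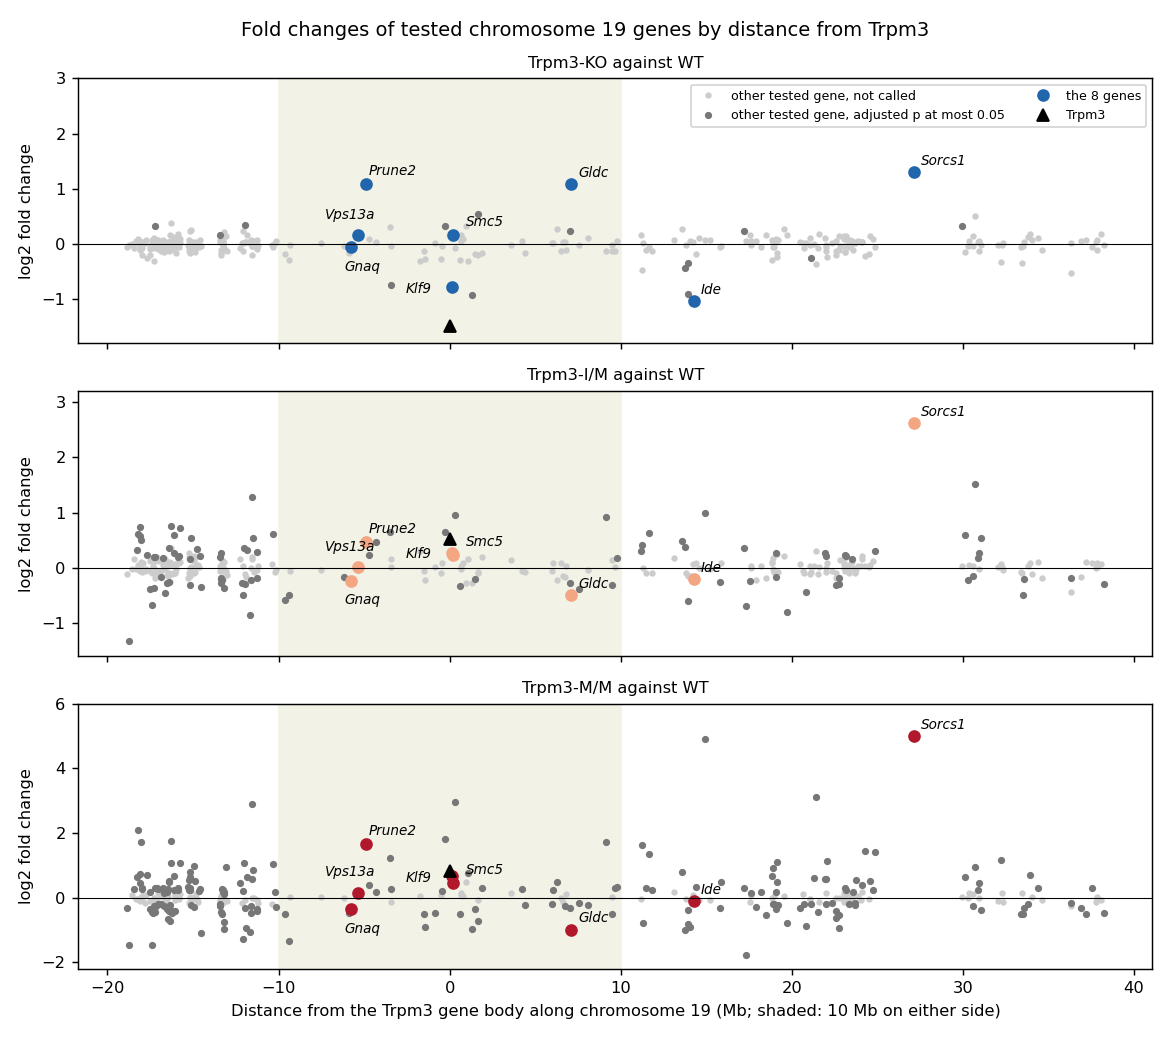
Log2 fold change against WT (y axes, a different range in each panel) of the 333 tested genes of chromosome 19 by distance from *Trpm3* in Mb (x axis), for the 3 other genotypes; large points are the 8 genes, triangles *Trpm3*, dark dots other genes with an adjusted p of at most 0.05, and shading 10 Mb on either side. In *Trpm3*-KO most genes lay near 0, and the values there helped to choose the 8 genes. *Prune2*, *Klf9*, *Gldc*, *Ide* and *Sorcs1* lay farther out, as did *Pip5k1b* (-0.93), *Fgfbp3* (-0.90) and *Carnmt1* (-0.74). In *Trpm3*-M/M called genes were spread along the whole chromosome.

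The partners of the 8 genes in their families and complexes were examined in 10 lists, with 72 tested genes in all. In *Trpm3*-KO, edgeR called 0 of the 72, where 14 had an unadjusted p under 0.05 and DESeq2 called 1. In *Trpm3*-I/M 22 of 72 were called (30.6%, against 32.6% of all tested genes), 10 higher and 12 lower, and in *Trpm3*-M/M 49 of 72 (68.1%, against 62.7%), 35 higher and 14 lower. The 35 include *Rgs2*, *Plcb1*, *Klf4*, *Klf10* and *Klf12*, which entered the test only through their *Trpm3*-M/M level. Without *Trpm3*-I/M replicate 3, 14 of 72 were called in *Trpm3*-I/M (19.4%, against 26.5%), 5 higher and 9 lower. By library size alone, the calls split into 68 higher and 2 lower in *Trpm3*-M/M and into 36 and 4 in *Trpm3*-I/M, so a fall in *Trpm3*-M/M is a fall relative to the bulk of the other genes, and 11 of the 49 calls there turned their sign. The median log2 FC of the 72 was 0.16 in *Trpm3*-M/M and 0.01 in both of the other genotypes.

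Among the Sp/KLF factors, the family of *Klf9*, 8 of 13 tested rose and 1 fell in *Trpm3*-M/M, or 69.2% called against 62.7% of all tested genes. In the lists below the share called in *Trpm3*-M/M ran from 3 of 6 to 3 of 3. Among the 8, *Klf4* and *Klf12* reached the CPM of 5 only in *Trpm3*-M/M libraries, so their rise is a description. *Klf10* passed the filter through these libraries as well, with only 1 WT library besides, and is read in the same way. *Klf4*, a factor of epithelial differentiation, stood at 1.08 ± 0.295 CPM in WT and 7.62 ± 1.9 CPM in *Trpm3*-M/M (log2 FC 2.82 ± 0.21, or 2.81 without a filter on low counts). *Klf13* rose by 0.97 ± 0.06 (adjusted p = 2.47e-08). *Klf10* stood higher by 0.96 ± 0.16, or by 0.95 without a filter on low counts. In *Trpm3*-I/M 1 of the 13 rose and 1 fell (15.4%, against 32.6% of all tested genes). *Klf4* rose by 0.69 ± 0.23 (adjusted p = 0.0322), and *Sp1*, named after its values were seen, fell by 0.20 (SE 0.07, adjusted p = 0.033). Neither was called without *Trpm3*-I/M replicate 3 (adjusted p = 0.0694 and 0.105). Of 6 tested genes that respond to glucocorticoid or thyroid hormone or encode their receptors, 3 rose and 1 fell in *Trpm3*-M/M: *Tsc22d3*, a glucocorticoid-induced gene, rose by 0.74 ± 0.11, *Nr3c1*, the glucocorticoid receptor gene, rose by 0.51 ± 0.11, and *Thra*, a thyroid hormone receptor gene, fell by 0.28 (SE 0.05), or stood 0.23 higher by library size alone.

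Of 6 tested partners of *Smc5* in the SMC5/6 complex, 3 rose in *Trpm3*-M/M and none passed the test as lower: *Slf2* by 0.59 ± 0.08, *Nsmce3* by 0.58 ± 0.07 and *Smc6*, the other core ATPase, by 0.25 ± 0.05. Of 9 tested genes of the other SMC complexes, 5 rose and 1 fell (66.7% called, against 62.7%). *Smc4* stood at 0.57 ± 0.07, *Smc2* at 0.37 ± 0.09 and *Rad21*, a cohesin subunit gene, at 0.35 ± 0.05. Of 3 tested relatives of *Prune2*, all rose in *Trpm3*-M/M, where 62.7% of all tested genes were called. *Bnip2* rose by 0.52 ± 0.08, *Prune1* by 0.43 ± 0.07 and *Arhgap1* by 0.30 ± 0.04.

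In Gq signalling, 4 of 10 tested genes rose and 3 fell in *Trpm3*-M/M (70.0% called, against 62.7% of all tested genes). Among the 4, *Rgs2* and *Plcb1* reached the CPM of 5 only in *Trpm3*-M/M libraries, so their rise is a description. *Rgs4*, a regulator that speeds the shut-off of Gq and Gi proteins, fell from 28.8 ± 1.61 CPM in WT to 4.96 ± 1.46 CPM in *Trpm3*-M/M, with *Trpm3*-I/M between them at 9.25 ± 1.09 CPM (log2 FC -2.54 ± 0.15, adjusted p = 1.01e-08). *Rgs2*, another such regulator, stood higher by 2.40 ± 0.16, and *Trio*, a guanine nucleotide exchange factor gene, fell by 0.76 (SE 0.08). *Gna11*, the closest relative of *Gnaq*, was named after its values were seen and stood at 0.11 ± 0.05 in *Trpm3*-M/M (adjusted p = 0.055). Of the 5 tested lipid transfer genes related to *Vps13a*, 4 rose in *Trpm3*-M/M (80.0%, against 62.7%), whereas *Vps13a* was not called. Among the 4, *Atg2b* rose by 0.41 ± 0.07, *Vps13c* by 0.36 ± 0.12 and *Vps13d* by 0.35 ± 0.13.

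In the glycine cleavage system and folate metabolism, the partners of *Gldc*, 4 of 8 tested genes fell in *Trpm3*-I/M (2 without replicate 3) and 4 fell and 1 rose in *Trpm3*-M/M. *Mthfd2*, a mitochondrial folate enzyme, fell from 16.1 ± 1.33 CPM in WT to 11.9 ± 0.945 CPM in *Trpm3*-M/M (log2 FC -0.43 ± 0.08, adjusted p = 0.000277) and to 11 ± 0.698 CPM in *Trpm3*-I/M (-0.55 ± 0.08, adjusted p = 0.000128). In *Trpm3*-M/M *Mthfd1l* fell by 0.35 (SE 0.04) and *Gcsh*, which carries the intermediate of glycine cleavage, by 0.24 (SE 0.05). By library size alone the *Trpm3*-M/M values of these 3 turned to 0.08, 0.16 and 0.27. In *Trpm3*-KO, where *Gldc* stood 2.13-fold higher, their values were 0.18, -0.05 and -0.07, none called.

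Among the M16 proteases related to *Ide* and the insulin and IGF receptors, 4 of 10 tested genes rose and 2 fell in *Trpm3*-M/M. The share called was 60.0%, against 62.7% of all tested genes. *Igf2r*, which binds IGF2 and sorts lysosomal enzymes, rose from 55.7 ± 7.93 CPM in WT to 396.2 ± 46.4 CPM in *Trpm3*-M/M, with *Trpm3*-I/M between them at 162.2 ± 14.9 CPM (log2 FC 2.83 ± 0.11, adjusted p = 1.99e-10). *Irs2*, an adaptor of the insulin receptor, rose by 1.26 ± 0.06, and *Igf1r* by 0.35 ± 0.09. Of the other VPS10 domain receptors, *Sorcs2* and *Sort1* were tested and both fell in *Trpm3*-M/M while *Sorcs1* rose, *Sorcs2* by 0.52 (SE 0.11, adjusted p = 0.000864) and *Sort1* by 0.25 (SE 0.05, adjusted p = 0.000623), with values of -0.02 and 0.26 by library size alone.

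**Figure D4:**
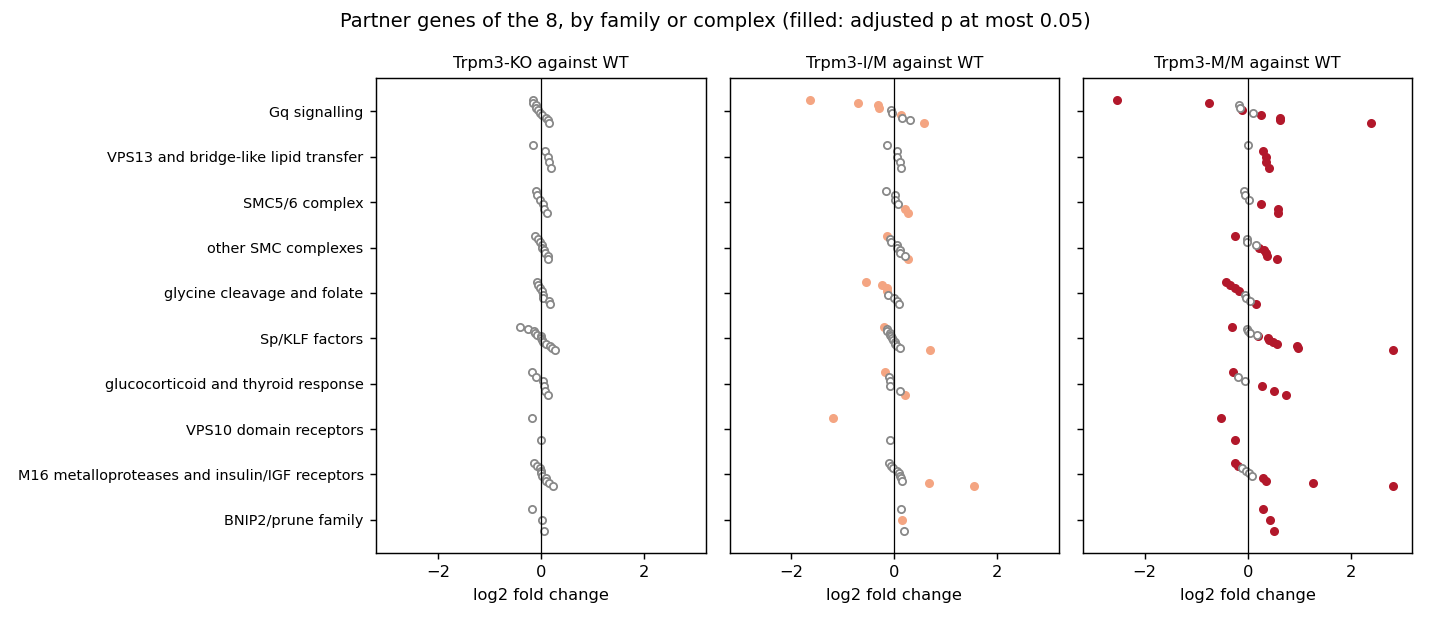
Log2 fold change against WT (x axis) of each tested partner gene, by list (rows) and genotype (panels); filled points had an adjusted p of at most 0.05. In *Trpm3*-KO 0 of 72 points are filled, and they run from *Klf4* at -0.41 to *Klf6* at 0.28. In *Trpm3*-M/M 49 are filled, from *Rgs4* at -2.54 to *Igf2r* at 2.83.

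The patterns of the 8 genes were compared by Pearson's r of log2 CPM over the 12 libraries, which share their genotype and their scaling and include the *Trpm3*-KO libraries that helped to choose the genes, so that r describes the order of the genotypes. *Gldc* and *Klf9* had r = -0.97, *Ide* and *Klf9* 0.83 and *Gldc* and *Ide* -0.82. *Smc5* and *Sorcs1* had r = 0.94 and *Gnaq* and *Sorcs1* -0.95. *Vps13a* stayed between -0.32 and 0.52 with the other 7. Over all tested genes, the 2 patterns most like each of the 8 lay on other chromosomes in every case, where 3.71% of tested genes were on chromosome 19: for *Gldc*, *Sox2ot* on chromosome 3 (r = 0.995) and *Rmc1* (0.984), for *Sorcs1*, *Col13a1* on chromosome 10 (0.994) and *Tmbim1* (0.991), for *Gnaq*, *Ptprd* (0.986) and *Smad5* (0.984), and for *Klf9*, *Anxa5* (0.979) and *Myo1e* (0.967). For *Ide* they were *Lyplal1* (0.977) and *Gm6166* (0.976), for *Smc5* *Dyrk2* (0.958) and *Camk2d* (0.953), for *Prune2* *C2cd2* (0.951) and *Zmat3* (0.948), and for *Vps13a* *Tep1* (0.894) and *Ubr3* (0.871).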

How the data were processed

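Poly(A) RNA from P7 lenses was sequenced in 12 libraries, grouped by the genotype in the sample labels. Reads were aligned and quantified in DRAGEN with a mouse Ensembl annotation (mm10 in the submitters' processing notes), and the authors deposited estimated counts for each gene, with no normalization. Of these, 88.4% were whole to within 1e-09. The tests had been planned for whole counts, and the values were rounded first. The authors' own CPM, log2 fold changes and p-values, also deposited, were not used.

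Genes with a CPM of at least 5 in at least 3 libraries were kept (8984 of 32253 with a count) and fitted in 1 model over 12 libraries with genotype as the only factor (edgeR 4.0.16 quasi-likelihood test, TMM, 8 residual degrees of freedom, R 4.3.3). Benjamini–Hochberg adjustment ran over all tested genes within each comparison, and genes were called at an adjusted p of 0.05. Coordinates are GENCODE annotations of GRCm38, matched by gene identifier (55227 of 55487).

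The members, gene lists, markers and tests were chosen with earlier results of these data known. Besides the 8 genes and *Trpm3*, the text names window genes past both thresholds, nearest tested neighbours, the 2 genes most like each of the 8, and at most 3 genes of each list by size of change in *Trpm3*-M/M. Any other is marked, or is named because it passed the filter only through *Trpm3*-M/M. Alternatives were library size only, TMM without crystallin genes, DESeq2 1.42.0, other filters on low counts, only the 2 genotypes compared, a replicate block, each library left out, a fold change of 2 and a window of 5 Mb. The labels do not say whether pools came from separate litters, so p-values measure the spread between pools. Same-numbered libraries did not deviate together (r from -0.264 to 0.149).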

Additional observations from a re-analysis of the deposited data

Results flagged for a closer look

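*Klf9* and *Gldc* were marked because every *Trpm3*-KO library lay on one side of all WT libraries and every *Trpm3*-M/M library on the other. The log2 difference from WT of *Klf9* was -0.78 in *Trpm3*-KO and 0.66 in *Trpm3*-M/M. That of *Gldc* was 1.09 in *Trpm3*-KO and -0.99 in *Trpm3*-M/M. The difference between the genotypes' effects was not tested, because the *Trpm3*-KO values helped to choose the genes and both effects share the WT libraries.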

How the results depend on the processing

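Of the single-gene fold changes tested, 249 values with 1 library left out and 151 under the other alternatives kept their direction and side of the threshold, 17 and 9 lost their call and 2 and 3 gained one. Of the *Trpm3*-KO differences, 90 and 52 moved by less than the spread between libraries and 0 reversed. Scaling by library size only turned *Gnaq* in *Trpm3*-M/M against WT (log2 FC 0.15) and against *Trpm3*-I/M (0.19), and *Ide* in *Trpm3*-M/M against WT (0.40). *Vps13a* in *Trpm3*-I/M against WT turned without WT replicate 2 (-0.06) and without *Trpm3*-I/M replicate 3 (-0.13), from a value near 0, and ran up to 0.11 without other libraries. The count of the 8 called in *Trpm3*-I/M against WT was 3 with only the 2 genotypes compared, where *Prune2* and *Sorcs1* were not tested, and 1 with a fold change of at least 2 required; leaving out 1 library gave 4 to 7. In *Trpm3*-M/M against WT the count was 2 with that fold change, and leaving out 1 library gave 4 to 7, with *Ide* also called without WT replicate 3. In *Trpm3*-M/M against *Trpm3*-I/M it was 2 with that fold change, and leaving out 1 library gave 3 to 6; without *Trpm3*-M/M replicate 2 or 3 it was 3. Leaving out any *Trpm3*-M/M library removed *Prune2* and *Sorcs1* through the filter. A window of 5 Mb, which holds 30 genes with the members in it, gave 10, 21 and 17 called genes (33.3%, 70.0% and 56.7%). The order is *Trpm3*-I/M against WT, *Trpm3*-M/M against WT and *Trpm3*-M/M against *Trpm3*-I/M, where 32.6%, 62.7% and 51.3% of all tested genes were called. Without the members the window gave 7, 18 and 14 of 27 (25.9%, 66.7% and 51.9%), a count added after seeing the data. The replicate numbers did not pair the samples; with them as a replicate block the counts of the 8 were 6, 6 and 5 in the same order, and *Klf9* in *Trpm3*-I/M (0.26, adjusted p = 0.0596) and *Gnaq* between the mutants (-0.12, adjusted p = 0.0606) were not called. Depth limits *Sorcs1* in WT, at 7 to 9 counts, and the causes of the other changes were not tested.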

Other observations

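Taken as a whole, chromosome 19 was not where *Trpm3*-KO calls were densest. Of its 333 tested genes, 6.01% were called in *Trpm3*-KO against WT with *Trpm3* and the 8 included, against 13.6% on chromosome 14 (42 of 308), 11.6% on chromosome 18 (29 of 251), 7.32% on chromosome 1 (39 of 533) and 4.36% over all tested genes. In *Trpm3*-M/M against WT the share ran from 59.0% on chromosome 17 to 66.9% on chromosome 18. These chromosomes were singled out after the values were seen. Within 5 Mb of *Trpm3*, 4 of 27 tested genes other than *Trpm3* and the 8 were called in *Trpm3*-KO against WT (14.8%). That count was likewise added after seeing the data.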
